A study of Mus musculus with 6 samples.

Results

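The cathepsins described here are 10 proteases of the lysosome, chosen by gene symbol from a table of 23204 genes counted in mouse osteoclasts: *Ctsk*, *Ctsb*, *Ctsd*, *Ctsl*, *Ctss*, *Ctsz*, *Ctsh*, *Ctsc*, *Ctsa* and *Ctsf*. All 10 were in the table and all 10 passed the filter on low counts. Cathepsins are made as inactive precursors, carried to the lysosome by sorting receptors and activated in its acid interior. Most, *Ctsk* among them, are cysteine proteases of the papain family, whereas cathepsin D is an aspartic protease and cathepsin A a serine carboxypeptidase. Osteoclasts, the multinucleated cells that resorb bone, secrete cathepsin K onto the bone surface, where it degrades type I collagen in acid. Cathepsins B, L, S, C and H are known for protein breakdown and antigen processing in macrophages, the cells from which osteoclast precursors are drawn.

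RNA was sequenced from bone marrow-derived osteoclasts of C57BL/6 mice, in 3 libraries labelled Tet2Rank–/–; Tet3aRank+/– (libraries 2, 3 and 5) and 3 wild-type libraries (1, 4 and 6), each named by the first number of its column name. The mutant label is read as loss of *Tet2* on both alleles and of *Tet3* on a single allele, genes for enzymes that oxidise methylated cytosine. The labels leave Rank, and the a of Tet3a, unexplained, and do not say which cells carry the deletion, or how many animals were used. Both groups were grown from adherent marrow cells taken after 2 days in M-CSF and then kept in RANKL, the cytokine that drives osteoclast formation, with M-CSF. Each genotype held female and male samples by its labels, but columns do not carry the sex. No p-value below is known to measure more than the spread between these libraries, which may be technical.

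Total counts lay between 9519978 and 14267135 in the mutant-labelled libraries and between 8794973 and 12845879 in the wild-type libraries. *Tet2* stood at 58.2, 45.5 and 52.3 CPM (the count scaled to a common library total, with TMM factors) in mutant-labelled libraries 2, 3 and 5, against 71.7, 80.9 and 79.3 CPM in wild-type libraries 1, 4 and 6. *Tet3* stood at 163, 141 and 156 CPM in the mutant-labelled libraries, against 145, 121 and 127 CPM in the wild-type ones, so it was not lower where the label gives a lost copy. Columns of libraries 5 and 6 carry a second number in their names, and this split, called the naming batch, holds both genotypes on each side. All 10 osteoclast markers were detected in every library, with a summed level of 2147 to 9182 CPM in the mutant-labelled libraries and 10606 to 27794 CPM in the wild-type libraries. The sum of 12 macrophage markers was 9112 to 9782 CPM in the mutant-labelled libraries and 5887 to 7393 CPM in the wild-type libraries. By log2 fold change, 11 macrophage markers lay above 0 and 1 below, and all 10 osteoclast markers lay below 0. The highest mean among the macrophage markers was that of *Csf1r*. Neither sum overlapped between the genotypes, and in bulk RNA fewer cells of a type and less RNA per cell cannot be told apart. The part of either in the cathepsin results was not tested.

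*Ctsk* (ENSMUSG00000028111, chromosome 3, 95499256 to 95509362, plus strand, mm10), the collagen-degrading protease of osteoclasts, lies 17423 bases upstream of *Ctss* (ENSMUSG00000038642, chromosome 3, 95526786 to 95556403, plus strand). Cathepsin S is a cysteine protease that remains active outside the lysosome and cleaves the invariant chain of MHC class II molecules. Promoter windows of this neighbouring pair and of *Ctsd* are shown because their log2 fold changes, mutant-labelled over wild type, differed in sign. That of *Ctsk* was below 0 and those of the other 2 genes were above 0. For *Ctss* the groups overlapped, and its change did not pass in edgeR (adjusted p = 0.402). Each window is RefSeq sequence on GRCm38.p6, running from 250 bases before the start site to 50 bases after it, on the gene's strand, and capitals mark motif matches on either strand. Windows were found for 8 of the 10 cathepsins, in 9 entries. Their start sites can differ from the ends of the genes as printed here. The start site of the *Ctsk* window lies upstream of the gene start given above, and that of the *Ctsd* window lies inside the annotated gene. The *Ctsk* window is chr3:95498960-95499259 (+), the *Ctss* window chr3:95526536-95526835 (+) and the *Ctsd* window chr7:142387778-142388077 (−).
Ctsk: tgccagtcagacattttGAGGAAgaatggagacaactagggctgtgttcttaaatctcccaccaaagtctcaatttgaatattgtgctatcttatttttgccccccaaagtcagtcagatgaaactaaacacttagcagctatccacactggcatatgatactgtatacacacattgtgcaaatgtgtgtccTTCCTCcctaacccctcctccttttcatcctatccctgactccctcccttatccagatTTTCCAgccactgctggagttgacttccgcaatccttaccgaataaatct
Ctss: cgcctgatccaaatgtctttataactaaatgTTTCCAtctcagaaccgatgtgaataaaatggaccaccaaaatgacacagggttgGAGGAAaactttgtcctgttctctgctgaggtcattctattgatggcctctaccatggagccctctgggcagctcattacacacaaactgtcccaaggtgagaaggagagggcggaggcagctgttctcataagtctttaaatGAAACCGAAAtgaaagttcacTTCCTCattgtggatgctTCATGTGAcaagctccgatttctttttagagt
Ctsd: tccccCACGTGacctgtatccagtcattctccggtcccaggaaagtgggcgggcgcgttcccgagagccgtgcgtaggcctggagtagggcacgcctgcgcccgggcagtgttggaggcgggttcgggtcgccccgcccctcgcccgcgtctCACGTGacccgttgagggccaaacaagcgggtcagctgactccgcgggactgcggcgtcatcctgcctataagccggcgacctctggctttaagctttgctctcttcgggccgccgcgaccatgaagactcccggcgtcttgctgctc

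The letters searched were the E-box CACGTG, which factors of the MITF and TFEB family bind, the related M-box TCATGTGA, the PU.1-type box GAGGAA, the NFAT-type box TGGAAA, the interferon regulatory factor repeat (GAAA, any 2 bases, GAAA) and the AP-1 site TGANTCA. They were picked with the sequences in view. The *Ctsk* window held 2 PU.1-type boxes, at -233 to -228 and -58 to -53 relative to the start site, and an NFAT-type box at bases 1 to 6. NFATc1 and PU.1 are known regulators of *Ctsk* in osteoclasts. The *Ctss* window held both of these kinds of box too, and besides them the interferon regulatory factor repeat at -21 to -12 and the M-box at 19 to 26. The *Ctsd* window held 2 E-boxes, at -245 to -240 and -98 to -93.

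E-boxes stood in the windows of 4 of the 8 cathepsins (*Ctsa*, *Ctsd*, *Ctsf* and *Ctsl*), while 7.15% of all 32851 promoter windows held one. PU.1-type boxes stood in 3 of 8 (*Ctsc*, *Ctsk* and *Ctss*), against 28.3% of all windows, and NFAT-type boxes in 3 of 8 (*Ctsk*, *Ctsl* and *Ctss*), against 21.4%. The M-box and the interferon regulatory factor repeat each stood in 1 of 8, in *Ctss*, against 0.986% and 3.44% of all windows. AP-1 sites stood in 0 of 8, against 7.81% of all windows. Cathepsins were counted here by gene and all promoters by window, which are unlike measures. *Ctsa* has a pair of windows, and its E-boxes lie in the second only. No marked matches overlapped in the windows printed. A match is a description of letters, and binding was not measured.

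**Figure D1:**
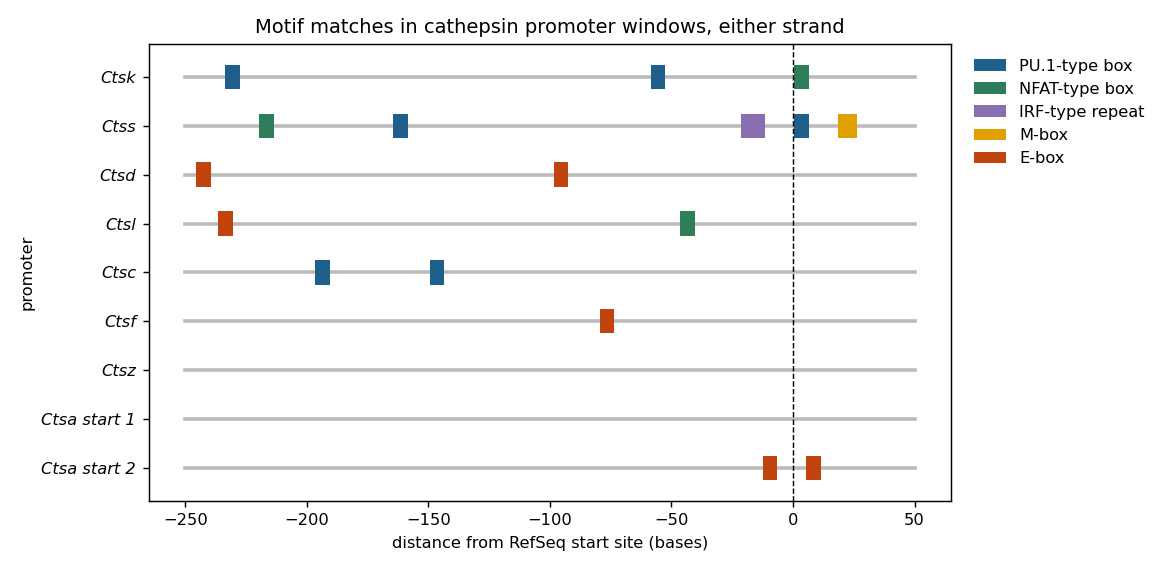
Motif matches in the promoter windows of 8 cathepsin genes, by distance in bases from the RefSeq start site (dashed line); each grey line is a window from 250 bases before to 50 after the start, and *Ctsa* has a pair of annotated starts. The *Ctsk* and *Ctss* windows hold PU.1-type and NFAT-type boxes, and the E-boxes lie in *Ctsd*, *Ctsl*, *Ctsf* and the second *Ctsa* window.

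*Ctsk* stood at 855, 2019 and 3295 CPM in mutant-labelled libraries 2, 3 and 5, against 5743, 4638 and 12109 CPM in wild-type libraries 1, 4 and 6. The highest mutant-labelled library thus lay below the lowest wild-type library, while library 6 alone stood far above the other wild-type libraries. The means were 2056 ± 1220.3 CPM in the mutant-labelled libraries and 7497 ± 4032 CPM in the wild-type libraries (SD, n = 3 each), 3.65-fold lower by the fitted change. Its log2 fold change was -1.87 (SE 0.578), with an adjusted p of 0.156 in edgeR's quasi-likelihood test with Benjamini-Hochberg adjustment over 14040 genes. Once the naming batch entered the fit, it was -1.86 (SE 0.326) with an adjusted p of 0.0243 in edgeR. DESeq2 gave an adjusted p of 0.0573. Within the naming batches, the log2 ratio of mutant-labelled to wild-type libraries was -1.97 between libraries 2 and 3 and libraries 1 and 4, and -1.88 between library 5 and library 6. The summed level of the osteoclast markers, which do not include *Ctsk*, was 2147, 6491 and 9182 CPM in libraries 2, 3 and 5, against 12788, 10606 and 27794 CPM in libraries 1, 4 and 6. The 6 libraries stood in the same order by this sum as by *Ctsk*.

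*Ctsb* (ENSMUSG00000021939, chromosome 14, 63122462 to 63145923) encodes cathepsin B, a cysteine protease that trims dipeptides from protein ends and also cuts within proteins. It stood at 10231, 7999 and 9932 CPM in libraries 2, 3 and 5, against 6852, 4379 and 3805 CPM in libraries 1, 4 and 6. *Ctsd* (ENSMUSG00000007891, chromosome 7, 142375911 to 142388038), which encodes the aspartic cathepsin, stood at 3675, 2983 and 3960.4 CPM in the mutant-labelled libraries, against 2502, 1855 and 2120.0 CPM in the wild-type libraries. For both genes every mutant-labelled library was above every wild-type library. The end of *Ctsb* overlaps exons of *Fdft1* on the opposite strand and *Ctsd* those of *Gm49369* on its own strand, so reads in the shared parts cannot be assigned with certainty. The log2 fold change of *Ctsb* was 0.91 (SE 0.259, adjusted p = 0.138, edgeR) and that of *Ctsd* 0.71 (SE 0.186, adjusted p = 0.120, edgeR).

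*Ctsl* (ENSMUSG00000021477, chromosome 13, 64359337 to 64370890) encodes cathepsin L, a cysteine endopeptidase of broad specificity. Its values were 902, 683 and 1014 CPM in mutant-labelled libraries 2, 3 and 5, against 576, 487 and 470.3 CPM in wild-type libraries 1, 4 and 6. *Ctsh* (ENSMUSG00000032359, chromosome 9, 90054152 to 90076089), which encodes an aminopeptidase, had 304, 265 and 326 CPM in the mutant-labelled libraries, against 219, 149 and 146 CPM in the wild-type ones. *Ctsc* (ENSMUSG00000030560, chromosome 7, 88278085 to 88310888) encodes cathepsin C, a dipeptidyl peptidase that activates the serine proteases of immune cell granules. Its level was 645, 675 and 568 CPM in the mutant-labelled libraries, against 417, 323 and 193 CPM in the wild-type libraries. Again the groups did not overlap for any of the 3 genes. The log2 fold changes were 0.76 for *Ctsl* (SE 0.186), 0.80 for *Ctsh* (SE 0.192) and 1.02 for *Ctsc* (SE 0.280), with edgeR adjusted p-values of 0.109, 0.106 and 0.132. In edgeR with the batch term, *Ctsc* (adjusted p = 0.0250) and *Ctsh* (adjusted p = 0.0489) rose, while *Ctsl* (0.0512), *Ctsd* (0.0655) and *Ctsb* (0.0766) did not pass.

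*Ctss* stood at 3764, 1921 and 2868 CPM in mutant-labelled libraries 2, 3 and 5, against 2564, 1781 and 1298 CPM in wild-type libraries 1, 4 and 6. Library 3 lay below library 1, so the groups overlapped, and the log2 fold change of 0.60 (SE 0.337) had an adjusted p of 0.402 in edgeR. The neighbouring genes *Ctsk* and *Ctss* thus had log2 fold changes of opposite sign. *Ctsz* (ENSMUSG00000016256, chromosome 2, 174427493 to 174439039), a carboxypeptidase gene, stood at 748, 731 and 962 CPM in the mutant-labelled libraries, against 824, 639 and 932 CPM in the wild-type libraries. *Ctsa* (ENSMUSG00000017760, chromosome 2, 164832873 to 164841032) encodes cathepsin A, which protects beta-galactosidase and neuraminidase 1 in a shared complex, and stood at 871, 857 and 1037 CPM in the mutant-labelled libraries, against 942, 888 and 1228 CPM in the wild-type libraries. *Ctsf* (ENSMUSG00000083282, chromosome 19, 4855130 to 4860918), a cysteine protease gene, was by far the lowest, at 48.7, 41.0 and 22.6 CPM in mutant-labelled libraries 2, 3 and 5, against 39.5, 54.0 and 26.3 CPM in wild-type libraries 1, 4 and 6. The groups overlapped for these 3 genes, whose log2 fold changes were 0.03 (SE 0.195), -0.15 (SE 0.177) and -0.09 (SE 0.356), with edgeR adjusted p-values of 0.975, 0.749 and 0.950.

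**Figure D2:**
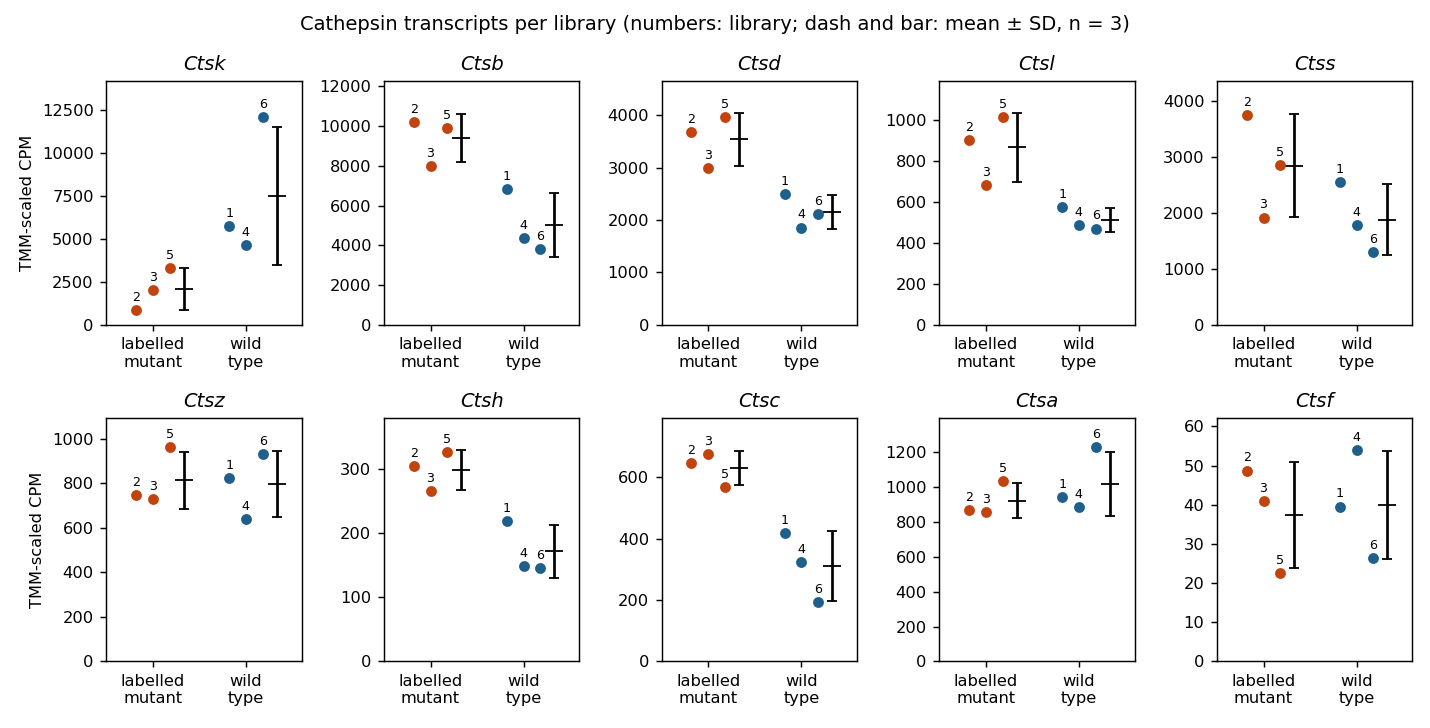
TMM-scaled CPM of each cathepsin gene in each library (points, numbered by library; libraries labelled mutant on the left, wild type on the right), with the mean and SD of 3 libraries as dash and bar; every axis starts at 0. *Ctsk* lies lower in all 3 mutant-labelled libraries, at 855 to 3295 CPM against 4638 to 12109 CPM in wild type, while *Ctsb*, *Ctsd*, *Ctsl*, *Ctsh* and *Ctsc* lie higher in all 3.

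Over the 10 cathepsins, 0 passed the threshold of 0.05 after adjustment over all genes, and 10 of 14040 genes (0.0712%) passed it (edgeR). At an unadjusted p under 0.05, 5 cathepsins were higher and 1, *Ctsk*, was lower, where 7.19% of all genes tested were higher and 12.4% lower. With the naming batch as a term, 2 rose and 1 fell, against 3.08% and 5.6% of all genes (edgeR). In DESeq2 5 rose (*Ctsb*, *Ctsd*, *Ctsl*, *Ctsh* and *Ctsc*) and 0 fell, against 5.26% and 6% of all genes. The groups did not overlap for 5 that were higher and 1 that was lower, against 9.91% and 16.9% of all genes. The median log2 fold change of the 10 was 0.66, and that of all genes tested -0.03. With each library left out in turn, 0 of the 10 passed in edgeR, and the log2 fold change of *Ctsk* ranged from -2.39 without library 5 to -1.31 without library 6.

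**Figure D3:**
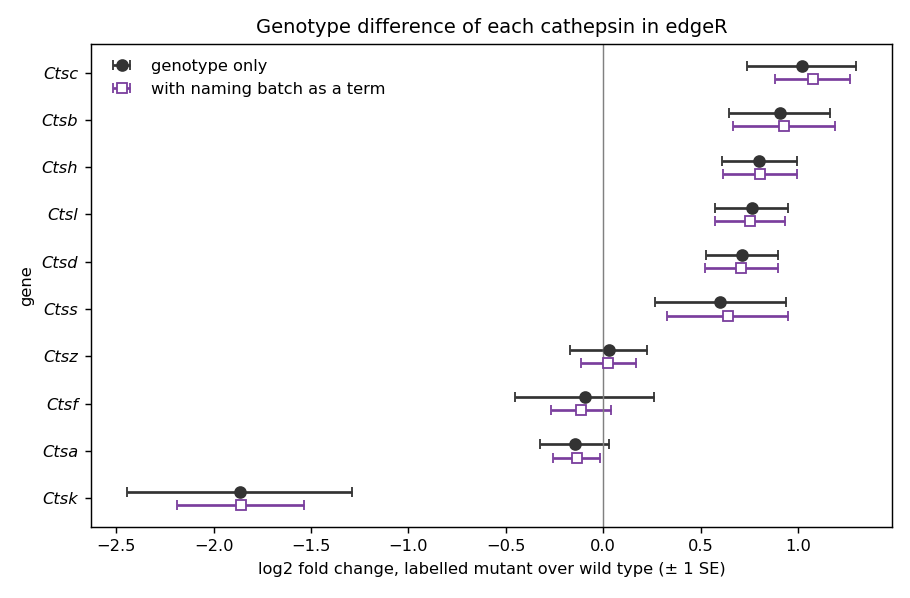
Log2 fold change of each cathepsin in edgeR, libraries labelled mutant over wild type, with bars of 1 SE; filled points are the fit with genotype alone and open squares the fit with the naming batch as a term. *Ctsk* stands alone below -1 at -1.87, and 6 cathepsins lie between 0.60 and 1.02.

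The comparison of *Ctsk* with the macrophage cathepsins was made as a ratio of CPM within each library, which does not depend on how libraries are scaled. *Ctsk* had 0.0836, 0.252 and 0.332 times the CPM of *Ctsb* in mutant-labelled libraries 2, 3 and 5, against 0.838, 1.06 and 3.18 times in wild-type libraries 1, 4 and 6. Relative to *Ctss* it had 0.227, 1.05 and 1.15 times the CPM in the mutant-labelled libraries, against 2.24, 2.60 and 9.33 times in the wild-type libraries. Each of these ratios was lower in every mutant-labelled library than in any wild-type library. The difference in the log2 ratio, mutant-labelled minus wild type, was -2.89 for *Ctsb*, -2.54 for *Ctss*, -2.66 for *Ctsd* and -2.69 for *Ctsl*. It was -2.76 for *Ctsh*, -3.03 for *Ctsc*, -1.97 for *Ctsz* and -1.81 for *Ctsa*, again with no overlap of the groups. Against *Ctsf* the difference was -1.84 and the groups overlapped, library 5 lying above libraries 1 and 4. All 9 ratios share *Ctsk*, whose own log2 fold change was -1.87, so they are not 9 separate results. For *Ctsz*, *Ctsa* and *Ctsf*, with log2 fold changes of 0.03, -0.15 and -0.09, the difference lay near that of *Ctsk* alone.

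A two-sided exact permutation test gave p = 0.1 for 8 of the 9 ratios and 0.3 for *Ctsf* (Benjamini-Hochberg adjusted 0.113 and 0.3), and with 3 libraries a side no p below 0.1 is possible. No ratio can therefore pass the threshold in this design. Within libraries 1 to 4 the 9 differences ranged from -2.82 for *Ctsc* to -1.89 for *Ctsa*, and between libraries 5 and 6 from -3.44 for *Ctsc* to -1.63 for *Ctsa*. Leaving out 1 library moved 4 of the 9 ratios by over 1.5 times. Without library 2 the difference was -2.29 for *Ctsb*, -1.79 for *Ctss* and -1.08 for *Ctsf*, and without library 6 it was -2.30 for *Ctsb*, -1.89 for *Ctss*, -2.31 for *Ctsc* and -1.15 for *Ctsf*. Without library 5 it was -2.61 for *Ctsf*.

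**Figure D4:**
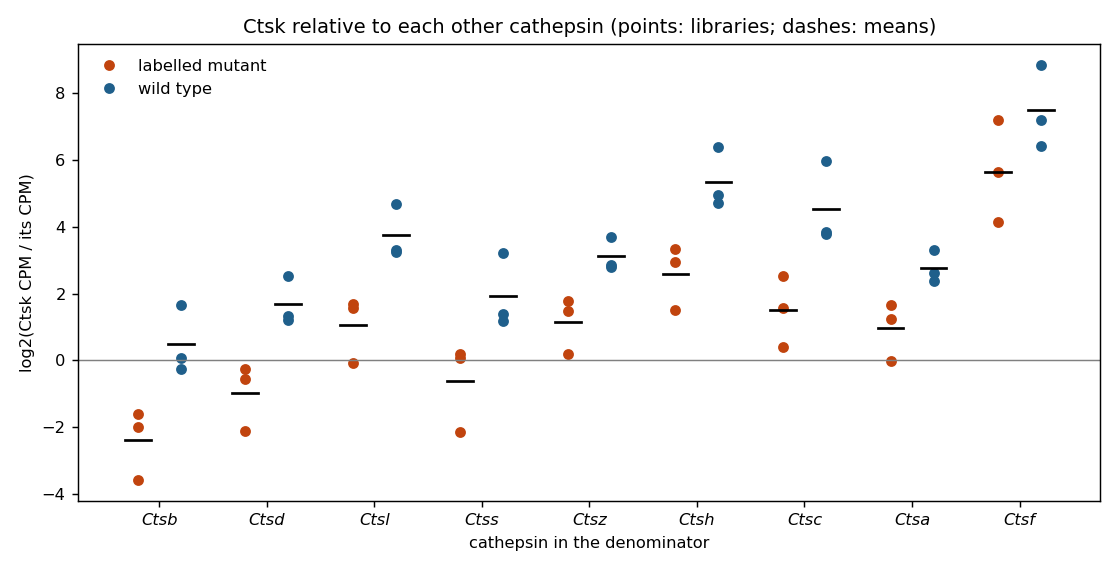
Log2 ratio of *Ctsk* CPM to the CPM of each other cathepsin, with a point per library (labelled mutant left, wild type right in each pair) and a dash at the mean. The wild-type points lie above the mutant-labelled points for every cathepsin except *Ctsf*, where the groups overlap.

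Levels of different genes were compared as CPM per kilobase of annotated exons. In the mutant-labelled libraries *Ctss* stood first at 2099 ± 678 CPM per kilobase, then *Ctsb* at 1551 ± 200.3, *Ctsd* at 1506 ± 214 and *Ctsk* at 1360 ± 807 (SD, n = 3 each), and the ranges of each neighbouring pair overlapped. In wild-type libraries *Ctsk* stood first at 4958 ± 2667 CPM per kilobase, and its lowest library, at 3067, was above the highest of the next gene, *Ctss*, at 1888. *Ctss* (1385 ± 471), *Ctsd* (918 ± 138) and *Ctsb* (828 ± 268) followed with overlapping ranges. *Ctsf* stood last in both groups, at 7.42 ± 2.67 CPM per kilobase in the mutant-labelled libraries and 7.92 ± 2.75 in the wild-type libraries. With the length of the longest transcript in place of all exons it was again last, at 17.9 CPM per kilobase labelled mutant and 19.1 wild type. That length also gave *Ctsc* 195 CPM per kilobase in place of 108 in the mutant-labelled libraries and 96.5 in place of 53.5 in the wild-type libraries, and *Ctsh* 109 in place of 66.3 labelled mutant and 62.4 in place of 38.1 wild type. With the length of the transcript paired with a RefSeq mRNA, chosen after seeing the data, *Ctsl* stood at 439.5 CPM per kilobase in place of 133 in the mutant-labelled libraries and at 259 in place of 78.8 in the wild-type libraries. *Ctsh* then stood at 184 labelled mutant and 106 wild type, and *Ctsf* at 18.9 labelled mutant and 20.2 wild type. The values of *Ctsk* and its place by mean in both groups were the same under all 3 lengths. Within libraries, by all exons, its rank was 4, 2 and 1 in mutant-labelled libraries 2, 3 and 5, and 1 in each wild-type library.

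*Ctsk* made up 7.42%, 21.1% and 24.7% of the summed cathepsin level per kilobase in libraries 2, 3 and 5, against 42.8%, 45.8% and 69.4% in libraries 1, 4 and 6. As a share of all counts, the 10 cathepsins together took 2.21%, 1.87% and 2.33% in the mutant-labelled libraries, against 2.02%, 1.59% and 2.17% in the wild-type libraries. The summed shares overlapped between the genotypes. The share of *Ctsk* did not overlap, at 0.0856% to 0.320% in the mutant-labelled libraries and 0.485% to 1.18% in the wild-type libraries. Nor did the share of the other 9 together. It was 2.12%, 1.67% and 2.01% in libraries 2, 3 and 5, against 1.46%, 1.10% and 0.992% in libraries 1, 4 and 6. By counts, *Ctsk* ranked 88, 29 and 16 among all genes in libraries 2, 3 and 5, against 8, 10 and 2 in libraries 1, 4 and 6. *Ctsb* ranked 6, 5 and 5 in the mutant-labelled libraries, against 5, 12 and 10 in the wild-type libraries.

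**Figure D5:**
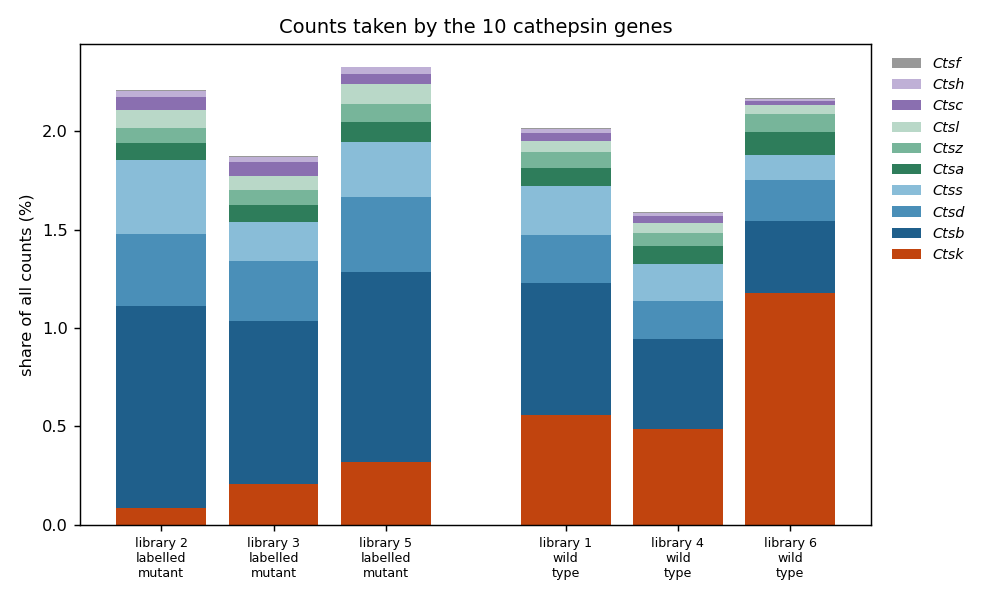
Share of all counts in percent taken by each cathepsin gene in each library, stacked from 0, with libraries labelled mutant on the left. The whole bars reach 1.87% to 2.33% in the mutant-labelled libraries and 1.59% to 2.17% in the wild-type libraries, and the *Ctsk* part is smaller in all 3 mutant-labelled libraries.

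Cathepsin activity also depends on sorting factors, inhibitors and partner enzymes, and lists of these were described by counts. Over all genes, 0 members of any of the 8 lists passed in edgeR. At an unadjusted p under 0.05, 4 sorting genes were higher and 4 lower, and 2 inhibitors were higher and 1 lower. On the transcription factor list 2 genes were higher and 3 lower. In addition 1 class II gene was higher, and 6 resorption genes and 1 cathepsin A partner were lower. Of all genes tested, 7.19% were higher and 12.4% lower at that p. Of 14 genes of lysosomal sorting and activation, 8 had a log2 fold change above 0 and 6 below (median 0.14, all genes -0.03). *Psap*, which encodes the lysosomal activator precursor prosaposin, stood at 16790 ± 1822 CPM in the mutant-labelled libraries and 9991 ± 2694 CPM in the wild-type libraries, and *Grn*, the progranulin gene, at 2330.0 ± 252 CPM labelled mutant and 1706 ± 204 CPM wild type (SD, n = 3 each). With the naming batch as a term 2 of the 14 rose and 2 fell in edgeR, against 3.08% and 5.6% of all genes, and these 4 are named after their values were seen. *Lgmn*, which encodes the asparaginyl endopeptidase legumain that processes several cathepsins, rose with 1368 ± 238 CPM in the mutant-labelled libraries and 633 ± 107 CPM in the wild-type libraries (adjusted p = 0.0251 with the batch term), and the sorting receptor gene *Sort1* rose with 196 ± 22.2 CPM labelled mutant and 106 ± 25.5 CPM wild type (0.0237). *Gnptab*, whose product starts the mannose 6-phosphate tag that directs cathepsins to the lysosome, fell with 199 ± 81.3 CPM labelled mutant and 512 ± 199 CPM wild type (0.0226), and *Igf2r*, a receptor for that tag, fell with 176 ± 39.5 CPM labelled mutant and 291 ± 41.7 CPM wild type (0.0346).

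Of 10 cathepsin inhibitor genes tested, 7 lay above 0 and 3 below (median 0.66). The 3 below, named after their values were seen, were the cystatin genes *Cstb* (-0.36), *Cst6* (-0.02) and *Cst7* (-1.21). The groups did not overlap for 3 inhibitor genes that were higher (*Serpinb6a*, *Serpinb9* and *Ctla2b*), against 9.91% of all genes. They did not overlap for 1 that was lower, *Cst7*, against 16.9% of all genes. *Cst7* was low, at 2.93 CPM labelled mutant and 6.79 CPM wild type. Of the genes above 0, *Serpinb1a*, *Serpinb9*, *Serpina3g*, *Ctla2a* and *Ctla2b* had low means too. These ran from 1.03 CPM (*Ctla2b*, wild type) to 11.7 CPM (*Serpinb9*, labelled mutant). *Cst3*, the gene of the secreted inhibitor cystatin C, stood at 1033 ± 109 CPM in the mutant-labelled libraries and 949 ± 121 CPM in the wild-type libraries (SD, n = 3 each). *Serpinb6a*, a serpin gene, had 636 ± 122 CPM labelled mutant and 391 ± 115 CPM wild type. It was the 1 inhibitor gene that rose in DESeq2 (adjusted p = 0.0299, against 0.194 in edgeR), where 5.26% of all genes rose. Among the partners of cathepsin A, *Glb1*, the beta-galactosidase gene, stood at 149 ± 18.9 CPM in the mutant-labelled libraries and 299 ± 93.1 CPM in the wild-type libraries, a log2 fold change of -1.01 (edgeR adjusted p = 0.104, or 0.0174 with the batch term). *Neu1*, the neuraminidase gene, had 119.9 ± 0.564 CPM labelled mutant and 128 ± 23.8 CPM wild type. Of the 3 other cathepsins tested, *Ctso*, a papain-family gene, stood at 73.9 ± 12.1 CPM labelled mutant and 62.3 ± 12.4 CPM wild type. *Ctsg*, a serine protease gene of neutrophil granules, stood at 3.22 ± 2.24 CPM labelled mutant and 1.90 ± 0.844 CPM wild type. All 3 lay above 0 (median 0.76). Cathepsin C activates the products of the granule protease genes *Elane*, at 6.93 ± 5.99 CPM labelled mutant and 4.23 ± 2.58 CPM wild type, and *Prtn3*, at 6.004 ± 3.01 CPM labelled mutant and 2.61 ± 1.002 CPM wild type. All 3 tested genes of that list lay above 0 (median 0.76), and the groups overlapped for each. *Ctsg* belongs to this list and to that of the other cathepsins, and it is the median gene of both. Without library 5 the log2 fold change was -0.29 in place of 0.71 for *Elane* and 0.02 in place of 0.76 for *Ctsg*. For *Prtn3* it was 0.75 in place of 1.20. The sum of 8 neutrophil markers was 434 to 1346 CPM in the mutant-labelled libraries and 247 to 884 CPM in the wild-type libraries, and its part in these values was not tested.

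The list of 7 genes around MHC class II holds the invariant chain gene *Cd74*, whose product cathepsins S and L cleave, class II and H2-DM chains and the regulator gene *Ciita*, and all 7 lay above 0 (median 1.17). *Cd74* stood at 1112, 934 and 3130 CPM in mutant-labelled libraries 2, 3 and 5, against 733, 488 and 1078 CPM in wild-type libraries 1, 4 and 6. *H2-Aa*, a class II chain gene, stood at 320, 268 and 1241 CPM in the mutant-labelled libraries, against 193, 116 and 366 CPM in the wild-type libraries. Library 5 stood far above the others for both genes, and the groups overlapped. Without library 5 the log2 fold change was 0.41 in place of 1.17 for *Cd74* and 0.38 in place of 1.44 for *H2-Aa*, and that of *Ciita* was -0.36 in place of 0.20. Library 5 also had the highest sum of neutrophil markers, at 1346 CPM, against 434 and 532 CPM in libraries 2 and 3. Its sums of stromal and osteoblast markers (3128 CPM) and of lymphocyte markers (8.78 CPM) were the highest of all libraries too. The dendritic cell sum was 20.7 CPM in library 5, against 8.05 and 10.1 CPM in libraries 2 and 3 and 31.3 CPM in library 6. The part of any of these sums in the class II values was not tested. With the naming batch as a term 4 of the 7 rose in edgeR, against 3.08% of all genes, and 0 of the 7 passed in DESeq2, where 5.26% of all genes rose.

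All 11 genes of bone matrix resorption, which act beside cathepsin K, lay below 0 (median -1.26), and the groups did not overlap for 8, all lower in the mutant-labelled libraries, against 16.9% of all genes. *Acp5*, *Mmp9*, *Atp6v0d2* and *Itgb3* of this list, and *Nfatc1* below, are also among the 10 osteoclast markers summed above. *Mmp9* has the highest mean of those markers, so the marker sum is not separate from these genes. *Mmp9*, a metalloprotease gene, stood at 2970 ± 1918 CPM labelled mutant and 8240.0 ± 5126 CPM wild type, and *Acp5*, the gene of tartrate-resistant acid phosphatase, at 1773 ± 1028 CPM labelled mutant and 5421 ± 2939 CPM wild type. The log2 fold change of *Mmp9* was -1.47, and -0.81 without library 6. Without that library it was -0.57 in place of -1.25 for *Mmp14* and -0.66 in place of -1.26 for *Itgb3*, given after their values were seen. No other gene of this list moved by over 1.5 times when 1 library was left out. With the batch term 7 of the 11 fell, against 5.6% of all genes, and 4 fell in DESeq2, against 6%. The list of transcription factors with known cathepsin targets also holds the coactivator gene *Ppargc1b*. Of its 9 genes, 3 lay above 0 and 6 below (median -0.38). *Nfatc1*, which drives *Ctsk* in osteoclasts, had 281 ± 119 CPM labelled mutant and 920.3 ± 309.6 CPM wild type, and *Spi1*, the PU.1 gene, 328 ± 38.3 CPM labelled mutant and 444 ± 103 CPM wild type. With the batch term 1 of the 9 fell, which was *Nfatc1* (edgeR adjusted p = 0.0250), against 5.6% of all genes, and 0 rose. *Tfe3*, *Tfeb*, *Tfec* and *Mitf*, genes of MiT factors, are named after their values were seen. *Tfe3* and *Tfeb*, whose products drive lysosomal genes, were the 2 of the list that were higher with no overlap of the groups, against 9.91% of all genes. A further 3 of the list, among them *Tfec* (log2 fold change -0.45), were lower with no overlap, against 16.9% of all genes. *Mitf* lay below 0 too (-0.34), with groups that overlapped. *Tfe3* had 160.1 ± 10.7 CPM labelled mutant and 119.6 ± 5.53 CPM wild type (edgeR adjusted p = 0.108, or 0.0538 with the batch term), and in DESeq2 it rose (adjusted p = 0.00137). *Tfeb* had 53.7 ± 5.69 CPM labelled mutant and 43.1 ± 2.94 CPM wild type (edgeR adjusted p = 0.197, or 0.130 with the batch term). Its adjusted p in DESeq2 was 0.136.

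The 5 genes whose log2 CPM followed that of *Ctsk* most closely over the 6 libraries, among 9152 ranked genes with a mean of 10 CPM or more, were *Cs*, *Gnptab*, *Usp7*, *Fam102a* and *Pik3cb*. Pearson's r was 0.999 for *Cs*, the citrate synthase gene, and 0.998 for *Pik3cb*, the lowest of the 5. The points share genotype and naming batch, and the coefficients describe likeness of shape only. *Cs* stood at 190.0, 278 and 360.0 CPM in mutant-labelled libraries 2, 3 and 5, against 479.9, 426 and 696 CPM in wild-type libraries 1, 4 and 6, and *Usp7*, a deubiquitinase gene, spanned 131 to 150.3 CPM in the mutant-labelled libraries against 154 to 168 CPM in the wild-type libraries.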

How the data were processed

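The authors deposited raw whole-number counts per Ensembl gene for 6 libraries, with symbols and coordinates. The submitters' processing notes name the build mm10 and the tools SAMtools 0.1.19, Bowtie2 2.2.3 and TopHat2 2.0.13. Per the labels' protocols, stranded mRNA libraries were read from a single end over 75 bases. For the counting program and its strand setting, the sources used here give nothing. *Ctsa*, *Ctsb*, *Ctsl* and *Ctsz* overlap exons of genes on the opposite strand in GENCODE M21, and *Ctsd* and *Ctsl* those of a gene on the same strand, so their counts may include or lose shared reads.

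Of 23264 rows, 60 repeats were dropped. Column names give the genotype and no replicate number, so columns were assigned to genotype only. Counts were tested in edgeR 4.0.16 (R 4.3.3) with TMM, filterByExpr, the quasi-likelihood test and a single term for genotype, and p-values were adjusted by Benjamini-Hochberg over 14040 genes, to a threshold of 0.05. The SE was taken as the absolute log2 fold change divided by the root of F. Alternatives were RLE size factors, no filter, the naming batch as a term, DESeq2 1.42.0 and leaving out each library, and libraries 1 to 4 alone, which was added after seeing the data. The scripts were tested on simulated data. Level per kilobase divides CPM by the union of GENCODE M21 exons, with the longest transcript as an alternative and the transcript paired with a RefSeq mRNA as one added after seeing the data. The members, lists and naming rule were chosen with earlier results of these data known. The rule named all members, up to 4 called genes per list filled to 2 by mean level, and the 5 genes most like *Ctsk*. The common biological coefficient of variation was 40.9%, which with 3 libraries per genotype limits precision. It was 23.5% with the batch term.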

Additional observations from a re-analysis of the deposited data

How the results depend on the processing

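No paired analysis was possible because the columns carry no replicate numbers. The counts of genes past the threshold, 7 higher and 3 lower, became 46 and 35 with no filter on low counts, 433 and 786 once the naming batch was a term, 629 and 717 in DESeq2, and 1 and 0 in libraries 1 to 4 alone. Leaving out each library in turn gave 0 to 2 higher and 0 to 1 lower. Of the cathepsins, 2 passed as higher and 1 as lower with the batch term, and 5 and 0 did in DESeq2, in place of 0 and 0. The log2 fold changes that passed were -1.86 for *Ctsk*, 1.08 for *Ctsc* and 0.81 for *Ctsh* with the batch term, and 0.94 for *Ctsb*, 0.74 for *Ctsd*, 0.79 for *Ctsl*, 0.83 for *Ctsh* and 1.05 for *Ctsc* in DESeq2. The cause of these differences was not tested.

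The small values of 3 cathepsins changed sign without a single library. *Ctsz* was -0.12 without library 5 and -0.080 without library 4, *Ctsa* 0.026 without library 6, and *Ctsf* 0.16 without library 5 and 0.23 without library 4. With each library left out, the difference in the log2 ratio of *Ctsk* stayed below 0 for all 9 cathepsins. It ranged from -3.28 to -2.29 for *Ctsb*, -3.01 to -2.09 for *Ctsd*, -3.01 to -2.12 for *Ctsl*, -2.96 to -1.79 for *Ctss*, -2.29 to -1.499 for *Ctsz*, -3.14 to -2.22 for *Ctsh*, -3.54 to -2.31 for *Ctsc*, -2.16 to -1.31 for *Ctsa* and -2.61 to -1.08 for *Ctsf*. The genes past the threshold in the lists, 0 in each, became 4 and 6 for sorting and activation, 1 and 1 for cathepsin A partners, 1 and 3 for transcription factors and 7 and 4 for bone matrix resorption, with the batch term and in DESeq2 in that order. They became 4 for MHC class II genes with the batch term and 1 for inhibitors in DESeq2. Leaving out each library gave 0 in each list.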
